A study of Mus musculus with 14 samples.

Results

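The genes described here are 9 microtubule genes of newborn neurons: the tubulins Tubb3, Tubb2b and Tuba1a, the microtubule-associated proteins Dcx and Map1b, the stathmins Stmn1, Stmn2 and Stmn3, and Dpysl3 of the collapsin response mediator protein (CRMP) family. They were chosen by name, with earlier results of these data known. All 9 were found among the 15119 genes of the expression table by their Ensembl identifiers. The RNA came from cells of the adult mouse hippocampus, separated by how much reactive oxygen species (ROS), which are superoxide and related oxidants, they held. All mice carried the transgene of strain B6.Cg-Tg(Nes-EGFP)1Yamm, in which regulatory elements of the Nestin gene drive green fluorescent protein (GFP), and no treatment was given. GFP-positive cells of the dissociated dentate gyrus were sorted into 3 classes by the signal of dihydroethidium, a dye that fluoresces once oxidized, with 5 libraries of the ROS+ class, 5 of ROS++ and 4 of ROS+++. The labels give no age, sex, animal, pool size or sorting limits, so the p-values below measure only the spread between these libraries.

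Microtubules are hollow filaments of alpha- and beta-tubulin that grow and shrink at their ends. A neuroblast uses them to push out a leading process, to pull its nucleus along behind it and, later, to build an axon. Doublecortin binds the filaments and steadies them, stathmins bind free tubulin dimers and favour disassembly, and CRMP proteins carry or bind tubulin at growing tips. In the adult dentate gyrus these proteins mark the neuroblasts and young granule neurons that descend from radial glia-like stem cells, and doublecortin and beta-III tubulin are the stains most used to find them.

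The start regions of the members were read from RefSeq (GRCm38.p6), which held a promoter window for 5 of the 9: Dcx, Tubb3, Stmn3, Map1b and Tuba1a. They are shown because these genes were highest in the same class yet differed widely in how far they were lower in the others. Each window runs from 250 bases before the annotated start to 50 bases from it, 5′ to 3′ on the gene's own strand, and of the 2 Dcx windows in RefSeq the first is shown. Capitals mark every match, on either strand, to CANNTG, which is the E-box that proneural factors bind, and to its variants CAGATG and also CAGCTG. The others are the SOX motifs ACAAAG and also AACAAT, and GGGCGG, which is a GC box, with TATAAA, which is a TATA box.
Dcx: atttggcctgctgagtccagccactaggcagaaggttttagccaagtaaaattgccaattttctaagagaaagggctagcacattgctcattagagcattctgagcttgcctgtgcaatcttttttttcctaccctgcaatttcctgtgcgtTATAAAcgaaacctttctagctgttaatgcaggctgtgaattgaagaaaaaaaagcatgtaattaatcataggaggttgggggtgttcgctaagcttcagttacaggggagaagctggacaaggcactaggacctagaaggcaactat
Tubb3: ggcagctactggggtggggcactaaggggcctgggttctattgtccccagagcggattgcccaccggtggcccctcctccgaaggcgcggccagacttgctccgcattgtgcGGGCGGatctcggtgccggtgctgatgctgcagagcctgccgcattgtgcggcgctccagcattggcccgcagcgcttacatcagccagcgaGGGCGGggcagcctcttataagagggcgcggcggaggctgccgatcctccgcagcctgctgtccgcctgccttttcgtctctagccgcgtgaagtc
Stmn3: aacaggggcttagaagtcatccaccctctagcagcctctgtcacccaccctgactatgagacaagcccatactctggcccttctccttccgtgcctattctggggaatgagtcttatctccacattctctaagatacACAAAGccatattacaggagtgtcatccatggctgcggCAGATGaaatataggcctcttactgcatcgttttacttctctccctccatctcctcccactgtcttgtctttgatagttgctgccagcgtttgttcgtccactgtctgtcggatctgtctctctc
Map1b: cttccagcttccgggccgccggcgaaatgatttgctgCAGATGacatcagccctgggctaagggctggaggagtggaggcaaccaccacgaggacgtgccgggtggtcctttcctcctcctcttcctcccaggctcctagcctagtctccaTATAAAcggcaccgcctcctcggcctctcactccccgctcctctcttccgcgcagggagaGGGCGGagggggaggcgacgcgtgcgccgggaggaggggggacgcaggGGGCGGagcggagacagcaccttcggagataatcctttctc
Tuba1a: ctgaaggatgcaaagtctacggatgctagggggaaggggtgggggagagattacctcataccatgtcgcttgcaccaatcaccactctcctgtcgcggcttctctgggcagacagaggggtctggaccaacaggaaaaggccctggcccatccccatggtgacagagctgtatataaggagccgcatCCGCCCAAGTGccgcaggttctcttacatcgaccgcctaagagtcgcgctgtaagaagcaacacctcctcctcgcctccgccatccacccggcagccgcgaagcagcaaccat

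The Dcx window is chrX:143933170-143933469, the Tubb3 window chr8:123411303-123411602, the Stmn3 window chr2:181314451-181314750, the Map1b window chr13:99516553-99516852 and the Tuba1a window chr15:98953452-98953751. Only Tubb3 lies on the plus strand of these 5. With the annotated start base as 0, TATAAA stood at -98 in Dcx and at -99 in Map1b, where 13.6% of the 32851 mouse windows of this length hold it. CAGATG was found at -75 in Stmn3 and at -213 in Map1b, against 17.2% of all windows. GGGCGG was found in Tubb3 at -138 and -46, in Map1b at -39 and 9 and, on the other strand, in Tuba1a at -63, against 35.7% of all windows. ACAAAG stood at -113 in Stmn3, against 18.7% of all windows. The general E-box, held by 72.3% of all windows, matched once in Tuba1a, at -58, where it shares a base with the GC box, and in Stmn3 and Map1b only as CAGATG. The motifs CAGCTG (16.3% of all windows) and AACAAT (10.7%) were in none of the 5. The 5 windows had no motif in common. G and C made up 43.0% of the Dcx window, 49.7% of Stmn3, 59.0% of Tuba1a, 65.7% of Map1b and 67.3% of Tubb3, against a median of 52.7% over all windows.

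All 9 genes were highest in the cells with the least dye signal, and their summed level was lower at each step of ROS. Together they held 0.956 to 1.09% of all reads in ROS+ libraries, 0.273 to 0.404% in ROS++ libraries and 0.0881 to 0.128% in ROS+++ libraries. In the comparison of ROS++ with ROS+, 8 of the 9 passed the test as lower, where 13.2% of the 15102 genes tested were lower and 16.4% higher (29.6% in either direction). In ROS+++ against ROS+ all 9 were lower, where 40.0% of all genes were lower and 19.2% higher (59.2% in either direction), and in ROS+++ against ROS++ 8 of 9 were lower, where 29.2% were lower and 9.89% higher (39.1% in either direction). As the genes were chosen with earlier results of these data known, these counts describe them and are no independent evidence. The test was limma on log2(CPM + 1), CPM being the counts of reads scaled to 1000000 per library, with Benjamini-Hochberg adjustment over all genes and a threshold of 0.05. The median difference over all genes was -0.03, -0.44 and -0.34 in these 3 comparisons, so a shift of the whole table lies under every ROS+++ value. In sorted bulk RNA, fewer cells of a type and less RNA per cell cannot be told apart.

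**Figure D1:**
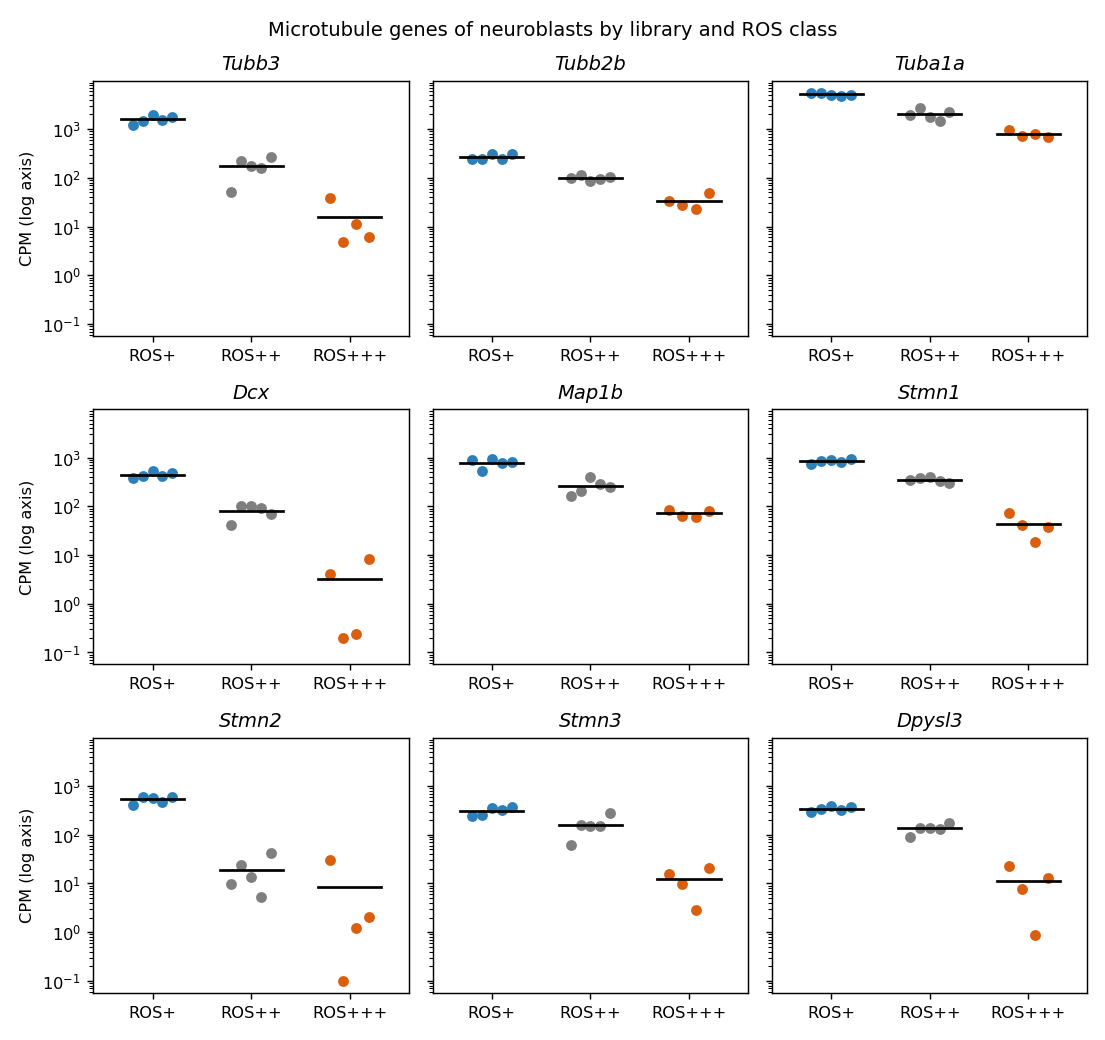
Level of each gene in every library, in CPM on a log axis, with 1 panel per gene; points are libraries, ordered left to right by replicate number within each of the ROS+, ROS++ and ROS+++ classes, and bars are class means. The classes step down in each panel, and Stmn2 and Dcx spread widest in ROS+++, with Stmn2 between 0.0982 and 30.6 CPM.

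Tubb3, the beta-III tubulin that marks young and mature neurons, was lower by the most among the 3 tubulins. It had 1203, 1491, 1903, 1513 and 1776 CPM in the ROS+ libraries, 50.5, 221, 171, 160.0 and 272 CPM in the ROS++ libraries and 39.4, 4.91, 11.2 and 6.22 CPM in the ROS+++ libraries. The 3 classes did not overlap, although the lowest ROS++ library, replicate 1, and the highest ROS+++ library, replicate 1 of that class, came close. Replicate numbers follow sample order and pair no libraries across classes. ROS++ was lower than ROS+ by a log2 difference of -3.34 ± 0.52 (SE; limma, adjusted p = 0.000321), and ROS+++ was lower than ROS+ by -7.02 ± 0.55 (limma, adjusted p = 1.91e-07). The mean in ROS+++ was 0.979% of that in ROS+, and 0.473% without ROS+++ replicate 1.

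Tubb2b, a beta-tubulin of migrating neurons, moved less. It had 238, 246, 313, 245 and 312 CPM in ROS+, 99.7, 113, 86.1, 94.96 and 103 in ROS++ and 34.2, 28.1, 23.2 and 48.2 CPM in ROS+++. The ROS++ libraries lay close together, and no class touched another. The log2 difference was -1.43 ± 0.17 for ROS++ against ROS+ (limma, adjusted p = 3.8e-06), -3.02 ± 0.18 for ROS+++ against ROS+ (adjusted p = 2.13e-10) and -1.59 ± 0.18 for ROS+++ against ROS++ (adjusted p = 2.66e-06).

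Tuba1a, the main alpha-tubulin of developing neurons, was the most abundant of the 9 in every class. It had 5611, 5445, 5014, 4689.6 and 5077 CPM in ROS+, 1933, 2694, 1755, 1486 and 2242 in ROS++ and 978, 727, 776 and 691 CPM in ROS+++. The libraries of ROS+ were nearly level, and every class stood clear of the next. ROS+++ kept 15.3% of the ROS+ mean, the largest share among the 9. The log2 difference was -1.38 ± 0.13 for ROS++ against ROS+ (limma, adjusted p = 2.81e-07) and -2.71 ± 0.14 for ROS+++ against ROS+ (adjusted p = 3.9e-11).

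Dcx, the gene for doublecortin, was near the limit of detection in part of ROS+++. It had 372, 419, 529.9, 415 and 484 CPM in ROS+ and 42.1, 102, 101, 91.3 and 70.9 CPM in ROS++. In ROS+++ it had 4.06, 0.196, 0.238 and 8.19 CPM. The classes were far apart, and within ROS+++ replicates 2 and 3 had 4 and 5 reads while replicates 1 and 4 had 85 and 104. A count of 0 would allow 3 reads, which is 0.119 to 0.236 CPM depending on the library and covers counting error only, so replicates 2 and 3 sat near the limit of detection. ROS++ was lower than ROS+ by a log2 difference of -2.49 ± 0.46 (limma, adjusted p = 0.000736), ROS+++ was lower than ROS+ by -7.26 ± 0.49 (adjusted p = 5.61e-09) and lower than ROS++ by -4.77 ± 0.49 (adjusted p = 2.7e-06). Over all alternatives the ROS+++ differences ran from -8.70 to -5.88 against ROS+ and from -6.21 to -3.46 against ROS++. The ROS+++ mean was 0.714% of the ROS+ mean, and 0.337% without ROS+++ replicate 4. That was the smallest share among the 9 with all libraries, but without ROS+++ replicate 1 Stmn2 (0.213%) and Tubb3 (0.473%) were below Dcx (0.647%).

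Map1b, the large microtubule-associated protein of growing axons, was lower by a similar amount at each step. It had 874, 539, 925, 786 and 808 CPM in ROS+, 159, 206, 392, 281 and 253 in ROS++ and 84.4, 62.9, 61.7 and 81.7 CPM in ROS+++. The ROS+++ libraries were tightly grouped, and the classes did not overlap. The log2 difference was -1.64 ± 0.20 for ROS++ against ROS+ (limma, adjusted p = 5.32e-06) and -1.76 ± 0.21 for ROS+++ against ROS++ (adjusted p = 4.92e-06).

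The stathmins differed from one another most at the first step, where their log2 differences ran from -5.03 to -1.09. Stmn1, the widely expressed member that also serves dividing cells, had 750.5, 859.6, 912, 794 and 952 CPM in ROS+, 350.2, 375, 406, 328 and 305 in ROS++ and 72.5, 40.6, 18.2 and 38.3 CPM in ROS+++. Its classes stood apart, with a narrow spread in ROS+ and ROS++. The log2 difference was -1.27 ± 0.23 for ROS++ against ROS+ (limma, adjusted p = 0.00047) and -3.18 ± 0.25 for ROS+++ against ROS++ (adjusted p = 1.23e-07).

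Stmn2, the neuron-specific stathmin of growth cones, was all but lost at the first step. It had 400.1, 595, 579, 481 and 599 CPM in ROS+ and 9.95, 24.5, 13.3, 5.32 and 41.4 CPM in ROS++, a mean in ROS++ of 3.56% of the ROS+ mean. The ROS+++ libraries had 30.6, 0.0982, 1.24 and 2.05 CPM, so replicate 1 lay inside the ROS++ range while the other three lay below it, and replicate 2 held 2 reads. ROS++ was lower than ROS+ by a log2 difference of -5.03 ± 0.73 (limma, adjusted p = 0.000146) and ROS+++ was lower than ROS+ by -7.07 ± 0.78 (adjusted p = 3.03e-06). The difference between ROS+++ and ROS++, -2.03 ± 0.78, did not pass (adjusted p = 0.0523). On leaving out ROS+++ replicate 1 it was -3.04 (adjusted p = 8.21e-05), on leaving out ROS++ replicate 4 it was -2.37 (adjusted p = 0.0321), and over all alternatives its adjusted p ran from 8.21e-05 to 0.166.

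Stmn3, a stathmin of neuronal membranes and the Golgi, kept the most at the first step. It had 246, 258, 353, 322 and 379 CPM in ROS+, 61.3, 160.0, 149, 151 and 280.2 in ROS++ and 15.6, 9.62, 2.86 and 20.9 CPM in ROS+++. ROS++ replicate 5 lay inside the ROS+ range, and ROS+++ was clear of both other classes. The difference between ROS++ and ROS+, -1.09 ± 0.42, did not pass (limma, adjusted p = 0.067), and it passed without ROS++ replicate 5 (-1.33, adjusted p = 0.0272) and on leaving out replicate 3 (adjusted p = 0.0104) or 4 (adjusted p = 0.0471) of ROS+++. Over all alternatives its adjusted p ran from 0.00474 to 0.154. ROS+++ was lower than ROS+ by -4.80 ± 0.45 (adjusted p = 3.33e-07) and lower than ROS++ by -3.71 ± 0.45 (adjusted p = 1.6e-05).

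Dpysl3, a CRMP protein of extending neurites, had 293, 333, 397, 315 and 369 CPM in ROS+, 90.4, 139.6, 136, 129.97 and 177 in ROS++ and 22.9, 7.70, 0.857 and 12.8 CPM in ROS+++. The classes did not overlap. ROS+++ was lower than ROS+ by a log2 difference of -5.32 ± 0.52 (limma, adjusted p = 6.45e-07) and lower than ROS++ by -3.96 ± 0.52 (adjusted p = 3.58e-05). The difference between ROS++ and ROS+, -1.36 ± 0.49, passed narrowly (adjusted p = 0.0483). That call was lost under each of the other library scalings (adjusted p = 0.052 to 0.0562) and on leaving out any library of ROS+ or ROS++, or replicate 2 or 4 of ROS+++ (adjusted p = 0.0526 to 0.111), with a difference of -1.22 at the smallest. Over all alternatives the limma adjusted p ran from 9.92e-06 to 0.122, and on leaving out single libraries from 0.000181 to 0.111.

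**Figure D2:**
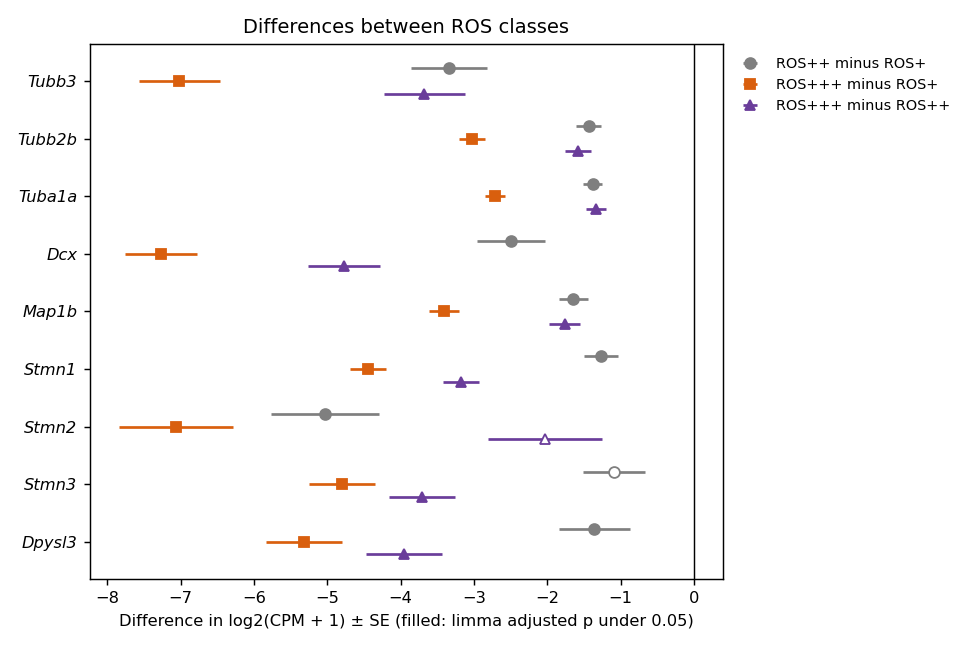
Difference in log2(CPM + 1) between classes for each gene, with bars of 1 SE and filled symbols where the limma adjusted p was under 0.05; circles are ROS++ minus ROS+, squares ROS+++ minus ROS+ and triangles ROS+++ minus ROS++. Only Stmn3 in ROS++ minus ROS+ and Stmn2 in ROS+++ minus ROS++ are open, at -1.09 and -2.03.

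No overlap between classes was seen for 8 of the 9 genes in ROS++ against ROS+ (10.9% of all genes were lower without overlap), for all 9 in ROS+++ against ROS+ (33.2%) and for 8 in ROS+++ against ROS++ (19.5%). Which library was extreme was partly shared between genes. ROS+ replicate 1 was the lowest of its class for 7 of the 9 genes, ROS++ replicate 1 the lowest for 5, and ROS+++ replicate 1 the highest for 6. ROS+++ replicate 1 also had the highest summed level of 9 mature neuron markers in its class (105 CPM, against 24.7 to 50.9 CPM elsewhere). It was also highest for neuroblast (778 CPM), oligodendrocyte precursor (293 CPM), cell cycle (241 CPM) and intermediate progenitor sums (48.4 CPM). It was not highest for the mural, microglia and macrophage, endothelial, leptomeningeal fibroblast, radial glia-like, mature astrocyte or myelinating oligodendrocyte sums. The part of these in the member values was not tested.

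The shape of the decline was asked by setting the second step, ROS+++ minus ROS++, against the first, ROS++ minus ROS+. Stmn1 was lower by more at the second step than at the first by -1.90 ± 0.41 log2 units (limma, adjusted p = 0.00403), and Stmn3 by -2.63 ± 0.75 (adjusted p = 0.025). These were 2 of the 9 genes, and 17.8% of all genes passed this test (15.0% of all genes with a negative and 2.81% with a positive value). The Stmn3 call was lost without ROS++ replicate 2, 3, 4 or 5 (adjusted p = 0.0523 to 0.0675). Dcx, at -2.28 ± 0.82 (adjusted p = 0.066), and Dpysl3, at -2.60 ± 0.86 (adjusted p = 0.0505), did not pass. Dcx passed without ROS++ replicate 1 (adjusted p = 0.0422), ROS+++ replicate 1 (0.0455) or ROS+++ replicate 4 (0.00434), and Dpysl3 without ROS+++ replicate 1 (0.0071), replicate 3 (0.00457) or replicate 4 (0.0451), these p also being adjusted limma values. Dpysl3 also passed with 5 CPM (-1.97, adjusted p = 0.0117), and both passed with limma-voom (-3.72 for Dcx and -3.03 for Dpysl3, adjusted p = 0.0295 and 0.00619). With sets of library numbers as a block Dpysl3 passed too (-2.69, adjusted p = 0.0331). The value of Stmn2, 3.00 ± 1.30, was positive and did not pass (adjusted p = 0.131), but it did, at 3.54, with a pseudocount of 5 CPM (limma, adjusted p = 0.00854). Its mean of 18.9 CPM in ROS++ left less room for a second step than the first of -5.03, even with no reads. With these pseudocounts the positive sign was fixed by the floor, so the test cannot compare the steps of Stmn2. Tubb3, Tubb2b, Tuba1a and Map1b had values of -0.34 to 0.05, with adjusted p of 0.778 or more and signs that turned under other scalings or on leaving out single libraries.

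Doublecortin served as a yardstick for the others, each gene's log2 level being taken minus that of Dcx in the same library and compared by an exact two-sided permutation test with Benjamini-Hochberg adjustment over 24 tests. The smallest p the libraries allow is 0.00794, which gave an adjusted p of 0.0127. Between ROS++ and ROS+, Tubb2b, Tuba1a, Map1b, Stmn1, Stmn3 and Dpysl3 were lower by less than Dcx, by 0.85 to 1.40 log2 units (exact permutation, adjusted p = 0.0127, and 0.0238 for Map1b). Stmn2 was lower by more, at -2.54 (exact permutation, adjusted p = 0.0127). Tubb3, at -0.85, did not pass (exact permutation, adjusted p = 0.0602) but passed without ROS++ replicate 5 (-1.09, exact permutation, adjusted p = 0.0147).

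Between ROS+++ and ROS+ the gap to Dcx was widest for Tuba1a at 4.55, Tubb2b at 4.24 and Map1b at 3.85, and it was 2.81 for Stmn1, 2.46 for Stmn3 and 1.94 for Dpysl3 (exact permutation, adjusted p = 0.0127 for each of the 6). Tubb3 at 0.24 (exact permutation, adjusted p = 0.841) and Stmn2 at 0.19 (exact permutation, adjusted p = 0.745) did not differ detectably from Dcx. Without ROS+++ replicate 4 Tubb3 differed by 1.05 (exact permutation, adjusted p = 0.0214). Over all alternatives the gap between ROS+++ and ROS+ ran from 3.18 to 5.17 for Tuba1a, 3.01 to 4.66 for Tubb2b and 2.545 to 4.35 for Map1b. It ran from 1.58 to 3.37 for Stmn1, 1.57 to 2.81 for Stmn3 and 1.25 to 2.27 for Dpysl3. From ROS++ to ROS+++ alone, Tubb2b, Tuba1a and Map1b again differed from Dcx, by 3.01 to 3.44 (exact permutation, adjusted p = 0.0127), and so did Stmn2, by 2.74 (exact permutation, adjusted p = 0.0336). The Stmn2 call was lost without any one of ROS++ replicates 1 to 4 (exact permutation, adjusted p = 0.0722) or without ROS+++ replicate 1 (2.00, exact permutation, adjusted p = 0.0857). With a mean of 18.9 CPM in ROS++, Stmn2 could not have been lower by the -4.77 of Dcx, even with no reads. Its positive gap was therefore fixed by the floor, and this test cannot compare Stmn2 with Dcx. Stmn1 (1.60, exact permutation, adjusted p = 0.0529), Stmn3 (1.06, adjusted p = 0.0667), Tubb3 (1.09, adjusted p = 0.225) and Dpysl3 (0.81, adjusted p = 0.218) did not pass. Stmn1 passed without ROS++ replicate 1 or without ROS+++ replicate 2, 3 or 4, Stmn3 without ROS++ replicate 5 and Tubb3 without ROS+++ replicate 4 (exact permutation, adjusted p = 0.0214 to 0.0476). In all, 17 of the 24 tests passed, among them the Stmn2 test between ROS+++ and ROS++ whose sign the floor fixed. All 24 use the same Dcx values, so they are not independent of one another.

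Per length, the order of the genes changed between classes. In CPM per kilobase of exon, ROS+ means ran from Tuba1a at 2866 through Tubb3 at 844, Stmn1 at 444, Stmn3 at 274, Tubb2b at 118, Stmn2 at 94.7, Dpysl3 at 51.6 and Map1b at 49.6 to Dcx at 35.1. In that order Tubb2b and Stmn2 overlapped, as did Dpysl3 with Map1b and Map1b with Dcx. In ROS++ Tuba1a led at 1121 CPM per kilobase, Stmn1 at 184, Stmn3 at 141, Tubb3 at 93.7 and Tubb2b at 43.3 followed with overlap from 1 to the next, and Dpysl3 at 20.4, Map1b at 16.3, Dcx at 6.44 and Stmn2 at 3.37 closed the list. In ROS+++ Tuba1a remained first at 440 CPM per kilobase. Stmn1 at 22.1, Tubb2b at 14.6, Stmn3 at 10.8, Tubb3 at 8.26 and Map1b at 4.59 overlapped from 1 to the next, as did Dpysl3 at 1.67, Stmn2 at 1.52 and Dcx at 0.251. Dividing by the longest transcript instead exchanged only neighbours whose libraries overlap.

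**Figure D3:**
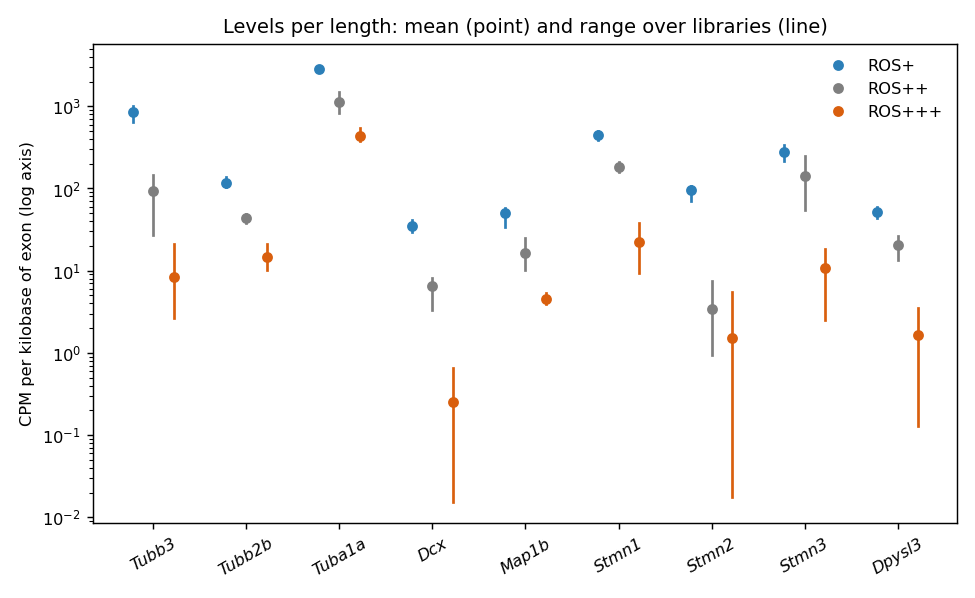
Levels per length in CPM per kilobase of exon on a log axis for the 9 genes, with points for the class mean and lines from the lowest to the highest library of ROS+, ROS++ and ROS+++. Tuba1a stands above the other 8 in each class, and Stmn2 passes from 94.7 in ROS+ to 3.37 in ROS++.

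The pool of tubulin transcripts changed its make-up as well as its size. Shares were taken per library from reads per kilobase, over the 7 beta-tubulin genes listed for Tubb3 and Tubb2b and over the 4 alpha-tubulin genes listed for Tuba1a, and tested by an exact two-sided permutation test with adjustment over 9 tests. Tubb3 made up 28.4, 35.2, 40.5, 36.5 and 40.0% of beta-tubulin transcripts in the ROS+ libraries, 2.15, 10.02, 6.999, 10.98 and 12.2% in the ROS++ libraries and 5.15, 0.622, 1.44 and 0.807% in the ROS+++ libraries. Every ROS+ library lay far above the rest, and ROS+++ replicate 1 lay above ROS++ replicate 1. The mean share was 36.1 ± 4.88% in ROS+, 8.46 ± 4.01% in ROS++ (SD, n = 5 each) and 2.01 ± 2.13% in ROS+++ (SD, n = 4), and both ROS++ and ROS+++ differed from ROS+ (exact permutation, adjusted p = 0.0143). The difference of -6.45 points between ROS+++ and ROS++ passed (exact permutation, adjusted p = 0.0476) but not on leaving out ROS++ replicate 2, 3, 4 or 5 or any one ROS+++ library (exact permutation, adjusted p = 0.0536 to 0.0918).

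Tubb2b held a small share of the beta-tubulin pool throughout, 5.05 ± 0.494% in ROS+, 3.90 ± 0.915% in ROS++ and 3.52 ± 1.17% in ROS+++ (SD; exact permutation, adjusted p = 0.0536, 0.0536 and 0.556 for ROS++ against ROS+, ROS+++ against ROS+ and ROS+++ against ROS++). It passed in ROS++ against ROS+ without ROS++ replicate 4 (exact permutation, adjusted p = 0.0143) and in ROS+++ against ROS+ without ROS+++ replicate 4 (exact permutation, adjusted p = 0.0268). The call turned on the length used: the difference between ROS++ and ROS+ passed with reads not divided by length (exact permutation, adjusted p = 0.0408) and with the longest transcript, as did then that between ROS+++ and ROS+ (exact permutation, adjusted p = 0.0357 each). Tuba1a made up 98.6 ± 0.254% of alpha-tubulin transcripts in ROS+, 92.2 ± 1.44% in ROS++ and 85.7 ± 1.66% in ROS+++ (SD). All 3 comparisons passed (exact permutation, adjusted p = 0.0143). The call between ROS+++ and ROS++ was lost without ROS++ replicate 2, 3 or 5 (exact permutation, adjusted p = 0.0514). Of the other beta-tubulins, given as mean shares in ROS+, ROS++ and ROS+++, Tubb2a had 8.28, 10.3 and 19.4%, Tubb4b 1.54, 5.96 and 15.4%, Tubb6 0.107, 2.50 and 4.96%, Tubb4a 20.4, 37.1 and 26.8%, and Tubb5 28.5, 31.8 and 27.95%. Tuba1b had 1.30, 6.70 and 12.1% of the alpha pool. The shares of these 6 genes are a description with no test.

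**Figure D4:**
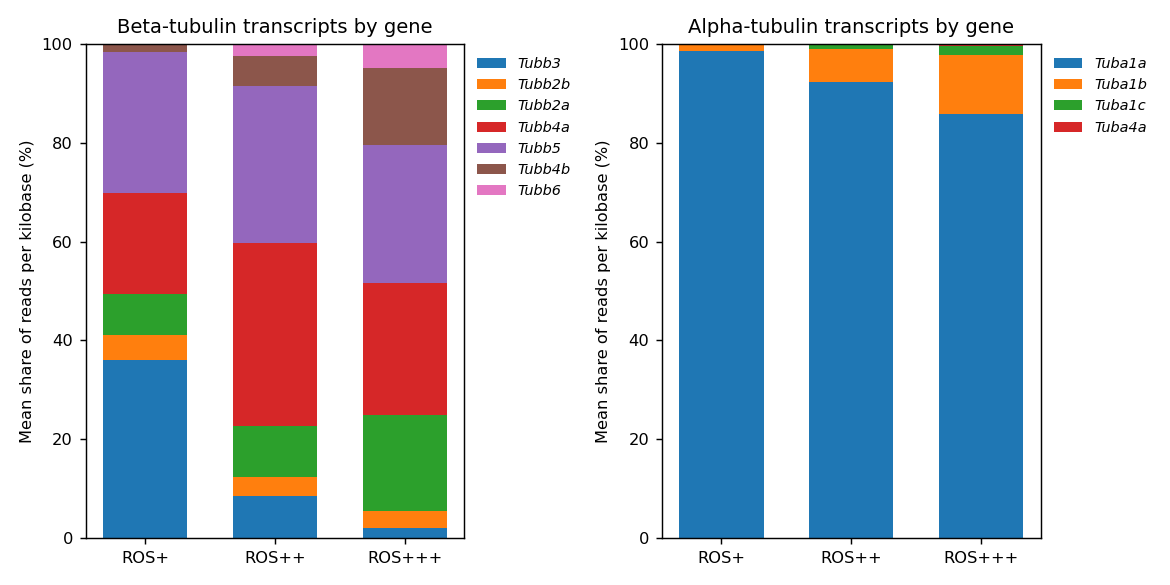
Mean share of each gene in the beta-tubulin pool (left) and the alpha-tubulin pool (right), in percent of reads per kilobase, as stacked bars for ROS+, ROS++ and ROS+++. Tubb3 takes 36.1, 8.46 and 2.01% of the beta pool, and Tuba1a takes 98.6, 92.2 and 85.7% of the alpha pool.

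Among close relatives of the 9, some went the other way. Of the 4 alpha-tubulins, Tuba1b and Tuba1c, isotypes of proliferating and non-neuronal cells, were higher in ROS++ than in ROS+, by 1.07 ± 0.14 and 2.43 ± 0.42 log2 units (limma, adjusted p = 1.61e-05 and 0.000265), and higher in ROS+++ than in ROS+, by 0.70 ± 0.15 and 2.44 ± 0.45 (adjusted p = 0.000641 and 0.000151). Tuba4a, whose exons overlap those of Stk16 on the other strand, did not pass in any of the 3 comparisons. Of the 7 beta-tubulins, Tubb6 averaged 6.01 ± 5.80 CPM for ROS+, 68.7 ± 36.6 for ROS++ and 50.3 ± 16.8 for ROS+++ (SD), and was higher in both ROS++ and ROS+++ than in ROS+ (3.44 ± 0.43 and 3.11 ± 0.46, adjusted p = 7.99e-06 and 1.45e-05). Tubb4b was higher in both as well, by 0.92 ± 0.16 and 0.86 ± 0.17 (adjusted p = 0.000262 and 0.000298). These directions against ROS+ kept their calls under each library scaling tried.

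Tubb5, the broadly expressed beta-tubulin, and Tubb2a, the near copy of Tubb2b, were lower in ROS++ than in ROS+ (-0.89 ± 0.12 and -0.75 ± 0.16; limma, adjusted p = 1.74e-05 and 0.00124) and in ROS+++ than in ROS+ (-2.52 ± 0.13 and -1.25 ± 0.16; adjusted p = 4.01e-11 and 4.23e-06). Tubb4a averaged 1049.9 ± 218 CPM for ROS+, 964 ± 312 for ROS++ and 248 ± 49.7 for ROS+++ (SD), and was lower in ROS+++ than in ROS+ (-2.08 ± 0.22, adjusted p = 7.62e-07). Its difference between ROS++ and ROS+, -0.17 ± 0.21, did not pass (adjusted p = 0.595).

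The doublecortin relatives Dclk1 and Dclk2, which carry a kinase domain and are also made by stem cells and glia, did not pass in ROS++ against ROS+ (0.21 ± 0.30 and -0.30 ± 0.30; limma, adjusted p = 0.639 and 0.491). In ROS+++ against ROS+ they were lower by -0.99 ± 0.32 and -1.23 ± 0.32 (adjusted p = 0.0136 and 0.00319), but the Dclk1 call was lost under each other scaling (adjusted p = 0.0676 to 0.132) and its value was -0.54 without ROS+++ replicate 3. Stmn4, the remaining stathmin, did not pass in ROS++ against ROS+ (-1.28 ± 0.47, adjusted p = 0.051), though it did on leaving out ROS+++ replicate 1, 3 or 4 (adjusted p = 0.000655, 0.0453 and 0.0485), and was lower in ROS+++ than in ROS+ (-4.53 ± 0.50, adjusted p = 8.88e-07).

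All 5 CRMP genes were lower in ROS++ and in ROS+++ than in ROS+, where 13.2% and 40.0% of all genes were lower. Crmp1 averaged 207 ± 30.6 CPM for ROS+, 48.6 ± 15.6 for ROS++ and 2.63 ± 1.54 for ROS+++ (SD), and Dpysl5, which marks immature neurons, averaged 82.8 ± 25.3 CPM for ROS+, 11.5 ± 5.05 for ROS++ and 3.44 ± 2.80 for ROS+++ (SD). Dpysl2, the most abundant and most widely expressed of the family, was the exception in size, with 5853 ± 644 CPM for ROS+, 3614 ± 281 for ROS++ and 3912 ± 229.7 for ROS+++ (SD). Its difference between ROS+++ and ROS+, -0.58 ± 0.08 (limma, adjusted p = 1.11e-05), did not pass with relative log expression or trimmed mean of M-values scaling (adjusted p = 0.291 and 0.11).

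**Figure D5:**
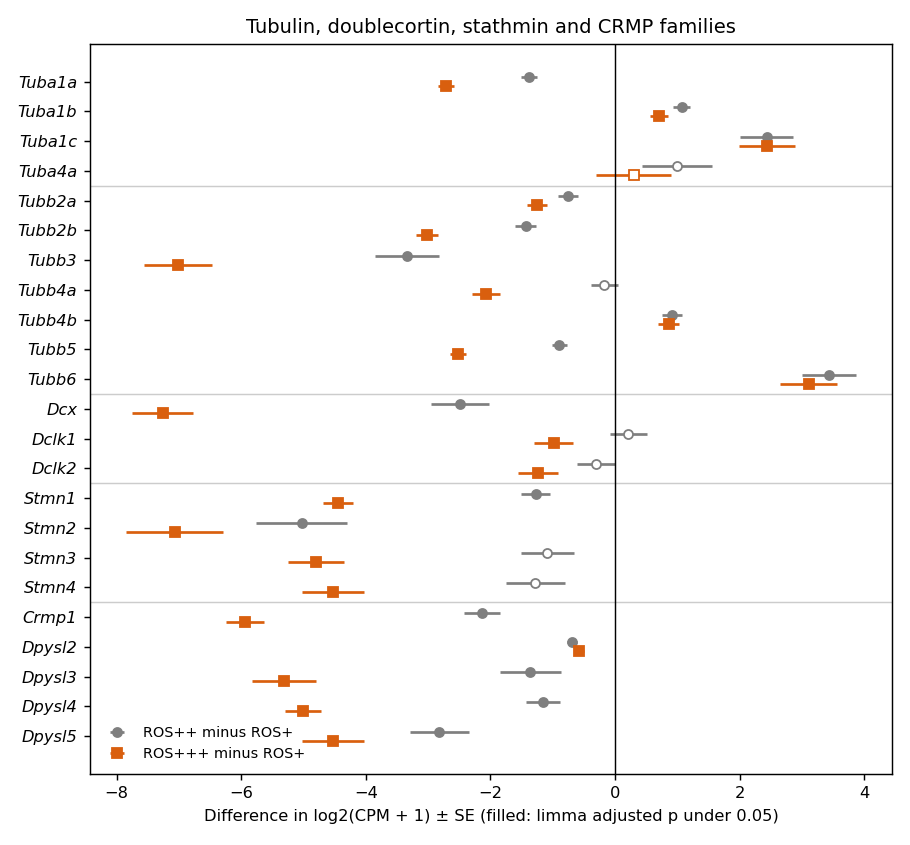
Difference in log2(CPM + 1) for the alpha-tubulins, beta-tubulins, doublecortin family, stathmins and CRMP genes, with bars of 1 SE and filled symbols where the limma adjusted p was under 0.05; circles are ROS++ minus ROS+ and squares ROS+++ minus ROS+. Tuba1b, Tuba1c, Tubb4b and Tubb6 lie right of 0, the last at 3.44 and 3.11, while the stathmins and CRMP genes lie left of 0.

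Beyond these families, the microtubule machinery was read from lists chosen by function. The counts stand against 13.2% of all genes lower and 16.4% higher in ROS++ than in ROS+, and 40.0% lower and 19.2% higher in ROS+++ than in ROS+. In ROS+++ against ROS++, 29.2% of all genes were lower and 9.89% higher. Near that background in ROS++ lay the modifying enzymes (14.3% lower and 9.52% higher) and the severing genes and folding cofactors (14.3% lower and 14.3% higher in each). Of 13 structural microtubule-associated proteins, Map1b among them, 4 were lower and 1 higher in ROS++ than in ROS+ and 9 were lower and 0 higher in ROS+++ than in ROS+. Their median differences were -0.12 and -1.16, against -0.03 and -0.44 for all genes. Map2, the dendrite protein, averaged 108 ± 25.7 CPM in ROS+++, against 598 ± 28.3 CPM in ROS+ (SD; -2.48 ± 0.14, limma, adjusted p = 1.24e-10). Map7d1, a kinesin cofactor, was the 1 that was higher in ROS++ than in ROS+ (0.70 ± 0.22, adjusted p = 0.0227), a call lost without ROS+ replicate 2 or 3 or ROS++ replicate 3 (adjusted p = 0.0579 to 0.071).

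Of 14 transport kinesins, 6 were lower in ROS++ than in ROS+ and 11 in ROS+++ than in ROS+, and none was higher (medians -0.49 and -1.66). Kif5c, the neuronal heavy chain of kinesin-1, had the largest test statistic in both, with 161 ± 23.9 CPM for ROS+, 24.3 ± 4.42 for ROS++ and 6.01 ± 3.47 for ROS+++ (SD). Between ROS+++ and ROS++, 9 were lower, where 29.2% of all genes were lower. Kif2a, on this list although it depolymerizes microtubule ends, led them (-1.05 ± 0.12, limma, adjusted p = 4.35e-06). Of 14 LIS1 and dynein genes, which move the nucleus, 2 were higher and 4 lower in ROS++ than in ROS+ and 2 were higher and 8 lower in ROS+++ than in ROS+ (4 higher and 6 lower under each other library scaling), with medians of -0.42 and -0.63. Nde1, the partner of LIS1 in dividing progenitors, was higher in ROS++ than in ROS+ (1.04 ± 0.21, adjusted p = 0.001), the dynein light intermediate chains Dync1li1 and Dync1li2 led the lower genes (-0.86 ± 0.17 in ROS++ and -1.67 ± 0.14 in ROS+++, both against ROS+), Bicd2, a dynein adaptor, was higher in ROS+++ than in ROS+ (0.98 ± 0.21, adjusted p = 0.000612), and Ndel1 was higher in ROS+++ than in ROS++ (1.18 ± 0.35, adjusted p = 0.0119).

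Of 21 tubulin modifying enzymes, 2 were higher and 3 lower in ROS++ than in ROS+, and 1 was higher and 12 lower in ROS+++ than in ROS+ (medians 0.06 and -1.01). Atat1, which acetylates alpha-tubulin, averaged 364 ± 57.8 CPM for ROS+, 154 ± 59.4 for ROS++ and 31.9 ± 8.82 for ROS+++ (SD; -3.50 ± 0.25 for ROS+++, limma, adjusted p = 2.84e-09). Vash2, a tubulin detyrosinase, was lower in ROS++ than in ROS+ by -2.40 ± 0.38 (adjusted p = 0.000111). Sirt2, a tubulin deacetylase, had 197 ± 48.3 CPM in ROS+++, against 1291 ± 341 CPM in ROS++ (SD; -2.71 ± 0.22, adjusted p = 1.73e-07). All 8 markers of myelinating oligodendrocytes, cells that also make Sirt2 and Tubb4a, were lower in ROS+++ than in ROS++ too (median -2.82). Of all genes, 29.2% were lower in that comparison. The part of these markers in the Sirt2 and Tubb4a values was not tested. Ttll3, a tubulin glycylase, was the 1 gene of the list higher in ROS+++ than in ROS+ (2.03 ± 0.29, adjusted p = 8.98e-06).

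Of 10 kinases and activators that act on microtubule proteins, 4 were lower in ROS++ than in ROS+, and 7 were lower and 1 higher in ROS+++ than in ROS+ (medians -0.33 and -0.77), the 7 becoming 4 under each other library scaling. Cdk5r1, the neuronal activator of the kinase that phosphorylates doublecortin, averaged 75.2 ± 9.07 CPM for ROS+, 19.5 ± 4.87 for ROS++ and 3.13 ± 2.50 for ROS+++ (SD), and Gsk3b was lower in ROS++ than in ROS+ by -0.83 ± 0.09 (limma, adjusted p = 1.14e-06). Mark1 was higher in ROS+++ than in ROS+ (1.21 ± 0.36, adjusted p = 0.00798). Of 10 genes that bind filament ends, 4 were lower in ROS++ than in ROS+, led by Clasp1 (-1.21 ± 0.25, adjusted p = 0.00127), and 5 were lower in ROS+++ than in ROS+, led by Camsap1 (-2.01 ± 0.26, adjusted p = 3.6e-06). Clip1 was higher in ROS+++, at 171 ± 36.3 CPM, than in ROS+, at 51.4 ± 12.6 CPM (SD; 1.71 ± 0.27, adjusted p = 2.71e-05).

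Of 7 severing genes, 1 was higher and 1 lower in ROS++ than in ROS+, and 6 were lower in ROS+++ than in ROS+ (medians -0.38 and -1.60). Spast, which encodes spastin, was the 1 lower in ROS++ and had the largest statistic of the 6 in ROS+++ (-0.73 ± 0.25 and -1.93 ± 0.27; limma, adjusted p = 0.0378 and 8.8e-06), the first not passing with trimmed mean of M-values scaling (adjusted p = 0.0507) or without any one of ROS+ replicates 1, 3, 4 and 5 or ROS++ replicates 1, 2, 4 and 5 (adjusted p = 0.0528 to 0.106). Fignl1 was the higher one in ROS++ (0.84 ± 0.31, adjusted p = 0.0482), which did not pass without any one of ROS+ replicates 3 to 5, ROS++ replicates 1, 2, 4 and 5 or ROS+++ replicates 1 and 2 (adjusted p = 0.0506 to 0.146), and it was lower in ROS+++ than in ROS++ (-2.41 ± 0.33, adjusted p = 1.85e-05). Of 7 tubulin folding cofactors, 1 was higher and 1 lower in ROS++ than in ROS+, and 4 were lower in ROS+++ than in ROS+ (2 under each other library scaling; medians 0.06 and -0.44). Arl2 was the higher one (0.50 ± 0.16, adjusted p = 0.0285), though not without ROS+ replicate 2 or 3 or ROS++ replicate 1 or 3 (adjusted p = 0.0557 to 0.0849). Tbce led both lower counts (-1.02 ± 0.24 and -1.75 ± 0.25; adjusted p = 0.00309 and 1.15e-05). Of 4 gamma-, delta- and epsilon-tubulins, 2 were lower in ROS++ and 1 in ROS+++, both times led by Tube1 (-1.23 ± 0.39 and -1.55 ± 0.41; adjusted p = 0.0231 and 0.00363), the first lost without ROS+ replicate 3 or ROS++ replicate 4 (adjusted p = 0.0504 and 0.0589).

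Of 12 mitotic kinesins, which build the spindle, 4 were higher and 0 lower in ROS++ than in ROS+, 6 were lower in ROS+++ than in ROS+, and all 12 were lower in ROS+++ than in ROS++ (medians 1.60, -1.71 and -3.43). Kif20a, a kinesin of cytokinesis, averaged 11.035 ± 6.39 CPM for ROS+, 36.8 ± 20.9 for ROS++ and 1.30 ± 1.44 for ROS+++ (SD). It was higher in ROS++ than in ROS+ (1.76 ± 0.51, limma, adjusted p = 0.0137) and lower in ROS+++ than in ROS++ (-4.05 ± 0.54, adjusted p = 1.54e-05).

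Other genes of neuroblasts, also chosen with earlier results of these data known, moved with the members. The counts below stand against 13.2% of all genes lower and 16.4% higher in ROS++ than in ROS+. In ROS+++ against ROS+ these shares were 40.0% and 19.2%, and in ROS+++ against ROS++ 29.2% and 9.89%. Of 17 neuroblast markers with no microtubule role, 14 were lower in ROS++ than in ROS+ (0 higher) and 16 were lower in ROS+++ than in ROS+ (1 higher, the polysialyltransferase gene St8sia4, by 0.70 with a limma adjusted p of 0.00676, named here after its values were seen), with medians of -2.42 and -4.95, and their summed level was 13703 to 19095 CPM in ROS+, 2220 to 3821 in ROS++ and 345 to 778 CPM in ROS+++. Of 9 mature neuron markers listed, 7 and 6 were lower, and their sum was 602 to 798 CPM in ROS+, 125 to 241 in ROS++ and 24.7 to 105 CPM in ROS+++, with none at 0 in any library. All 12 mural markers were higher in ROS++ and in ROS+++ than in ROS+, with sums running from 18.4 to 519 CPM for ROS+, 8359.5 to 24610 CPM in ROS++ and 55751 to 64467 CPM in ROS+++. All 12 microglia and macrophage markers were likewise higher in both, with sums of 3.57 to 16.8, 894 to 2164 and 702 to 2862 CPM, and 1 to 3 of them were at 0 in each ROS+ library. Of 12 radial glia-like markers, 11 were higher and 0 lower in ROS++ than in ROS+, and 10 were higher and 2 lower in ROS+++ than in ROS+. Of 10 mature astrocyte markers 9 were higher in each, with 1 lower in ROS+++. All 6 oligodendrocyte precursor markers were lower in ROS+++ than in ROS+ (median -4.18) and than in ROS++ (median -4.65), and none passed between ROS++ and ROS+. Their sums lay between 1699 and 2487 CPM in ROS+, between 1703 and 3207 CPM in ROS++ and between 14.1 and 293 CPM in ROS+++, with none at 0 in any library. Of 8 myelinating oligodendrocyte markers, 3 were higher in ROS++ than in ROS+, and 1 was higher and 4 lower in ROS+++ than in ROS+. Their sums lay between 1965 and 5459 CPM in ROS+, between 1976 and 10368 CPM in ROS++ and between 487 and 653 CPM in ROS+++. Of 9 endothelial markers 1 and 4 were higher in ROS++ and ROS+++ than in ROS+, and of 6 leptomeningeal fibroblast markers 4 and 4. Nes itself, whose elements drive the reporter, had 16.6 ± 4.63 CPM for ROS+, 95.5 ± 18.8 for ROS++ and 227 ± 77.7 for ROS+++ (SD). The part of these cell type markers in the member values was not tested.

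The genes whose profiles over the 14 libraries lay closest to each member were ranked by the root mean square distance between centred log2(CPM + 1) values, among 10220 genes with a mean of at least 10 CPM, as a description. Sox11, a transcription factor of immature neurons, was the nearest to both Dcx, at 0.617, and Tubb3, at 0.767, and Nol4, Elavl2, Ralyl and Zfp57 followed for Dcx, while Srrm4, Sh3rf3, Pxylp1 and Add2 followed for Tubb3. Map1b lay nearest to Sox4, at 0.301, then to Plxna2, Celf2, Atat1 and Rufy3. Celf2, at 0.207, and Rufy3 were also the nearest to Tubb2b, before Zhx3, Pclo and Gm17750. Tuba1a had 2410002F23Rik, at 0.232, Zfp266, Nhsl1, Ptbp2 and Mapk8. Stmn1 had Pcp4, at 0.282, Nudt10, Dcc, Ncam1 and Rtn1. Stmn3 had Bcl7a, at 0.382, Mmp16, 2900011O08Rik, Dpysl3, at 0.452, and Fxyd6, and Dpysl3 in turn had Fxyd6, at 0.329, Snap25, Stmn3, Gpr85 and Nipsnap1. Stmn2 had no profile as close, as its nearest genes were Hecw1, at 0.880, and Tubb3, at 1.06, then Myt1l, Calb2 and Sh3rf3. Among the members themselves the closest pair was Tuba1a and Tubb2b, at 0.329.

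In GRCm38 with GENCODE M21 the genes lie at chrX:143855842-143933311 (Dcx), chr8:123411424-123422015 (Tubb3), chr13:34126748-34130466 (Tubb2b), chr15:98949837-98953703 (Tuba1a), chr4:134468320-134473843 (Stmn1), chr3:8509360-8561606 (Stmn2), chr2:181306459-181314500 (Stmn3) and chr13:99421446-99516540 (Map1b), and Dpysl3 lies on chromosome 18. All values are reads per gene as the authors counted them, with an annotation that was not stated. Division by exon length assumes that the reads were counted over exons. Of all stretches of 50 bases in a gene's exons, 75.5% of those in Tuba1a, 36.9% in Tubb2b and 18.9% in Stmn1 also occur in another gene, mostly Tuba1c, Tubb2a and Gm11223. The share was 0.893% in Stmn2, 0.204% in Dcx and 0 in Tubb3, Map1b, Stmn3 and Dpysl3. Levels and shares of Tuba1a, Tubb2b and their near copies are therefore uncertain by however many reads the counting dropped or misplaced, and the library preparation kept no strand.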

How the data were processed

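Expression was measured by RNA sequencing of 14 libraries of sorted GFP-positive dentate gyrus cells. Per the labels' protocols, cDNA was primed with poly-dT, amplified over 12 cycles and sheared, made into libraries with a kit for DNA, which keeps neither strand nor molecular identifiers. The authors deposited log2 values for 15119 genes, which the values themselves show to be log2 of counts per 1000000 reads of the library total (CPM) plus a small prior, with no other scaling. Per the submitters' processing notes STAR, edgeR and build mm10 were used; roles, versions and annotation were not stated in these notes. Whole reads were recovered from the deposited log2 values (20832009 to 25313902 in ROS+ libraries, 18325361 to 23454022 in ROS++ and 12704227 to 20998589 in ROS+++) and scaled to CPM. No pair of libraries was pooled or left out, and replicate numbers follow sample order.

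One limma-trend model with robust moderation (limma 3.58.1, statmod 1.5.0, R 4.3.3) was fitted to log2(CPM + 1) of all 14 libraries, with a mean per class, 11 residual degrees of freedom and genes of at least 1 CPM in at least 4 libraries. This kept 15102 genes, all 9 members among them, and removed 17. P-values were adjusted over all genes by Benjamini-Hochberg, and the model was tested on simulated data. The pseudocount of 1 CPM makes differences of low genes too small. Single shares and gaps to Dcx used exact permutation tests over libraries. Members and gene lists were chosen with earlier results of these data known. Named genes were the members, all tubulins, doublecortins, stathmins and CRMP genes, in each other list and comparison the called gene with the largest statistic in each direction, and the 5 nearest profiles of each member. Symbols, coordinates and exon lengths came from GENCODE M21, promoters from RefSeq GRCm38.p6. The alternatives were 3 other library scalings, pseudocounts of 0.5 and 5 CPM, no filter, the deposited log2 values, limma-voom on the recovered reads, fits of only the 2 classes compared, a block for sets of consecutive library numbers, each library left out in turn, and, for shares, no division by length or the longest transcript, the last chosen after seeing the data.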

Additional observations from a re-analysis of the deposited data

How the results depend on the processing

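Of 648 recomputed log2 differences of the members, 619 kept their call and 0 changed direction. Of 1743 such values of the other genes, in the comparisons printed for each, 1668 kept it and 2 changed direction, neither called: Tubb4a in ROS++ against ROS+ (-0.30 to 0.030 leaving out libraries) and Tuba4a in ROS+++ against ROS+ (-0.24 to 0.99). Outside those, uncalled differences between ROS+++ and ROS++ turned positive for Tuba1b and Tubb6 with relative log expression factors (0.05 and 0.08) and for Tubb4b with each scaling (0.22 to 0.35). Genes called per comparison ran from 3634 to 4626, 8290 to 9204 and 5053 to 6148 on leaving out single libraries, members called from 7 to 9, 9 to 9 and 8 to 9, shares from 4 to 6 and gaps to Dcx from 16 to 20. The number of members past the test of the second step against the first, 2, became 4 with a pseudocount of 5 CPM, which added Dpysl3 and, with a positive value whose sign the floor fixed, Stmn2, and 4 with limma-voom, which added Dcx and Dpysl3, and ran from 1 to 4 on leaving out single libraries. Values near 0 of that step test changed sign: Tubb3 to 0.026 with relative log expression factors and 0.059 with 5 CPM (-1.13 to 0.076 leaving out libraries), Tubb2b to 0.23, 0.10 and 0.13 with relative log expression, upper-quartile and trimmed mean factors (-0.34 to 0.00024), Map1b to 0.27, 0.14 and 0.16 with the same (-0.44 to 0.21), and Tuba1a between -0.16 and 0.27 leaving out libraries. The gap of Tubb3 to Dcx in ROS+++ against ROS+ became -0.65 with 5 CPM and ran from -0.17 to 1.05, and that of Stmn2 from -0.54 to 0.87, leaving out libraries. The Stmn3 difference of ROS++ from ROS+ also passed with 5 CPM and limma-voom (limma adjusted p = 0.0233 and 0.00474). It passed too with only the 2 classes and with the block of library-number sets (limma adjusted p = 0.00914 and 0.0159). The Dpysl3 one failed with 0.5 CPM and the deposited values (limma adjusted p = 0.0792 and 0.122). The model takes 1 spread from all 3 classes, so ROS+++ libraries enter the p-values of ROS++ against ROS+. The Stmn3 difference was -1.09 with all libraries and without ROS+++ replicate 3 or 4. The part of the ROS+++ spread in these calls was not tested.

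The other scalings raised the median of all genes in ROS+++ against ROS+ by 0.268 to 0.397 log2 units and the share of calls that were higher from 32.5% to between 43.9 and 50.6%, and in ROS+++ against ROS++ from 25.3% to between 42.4 and 52.2%. Lists of modifying enzymes then had 6 lower genes in place of 10 in ROS+++ against ROS++, and mitotic kinesins 7 or 2 higher in place of 4 in ROS++ against ROS+ with 5 CPM or the deposited values. Labels pair no libraries. Same-set libraries correlated at -0.0222 to 0.231 (median 0.0842) in their deviations and others at -0.15 to 0.161 (median -0.00889). With the block of library-number sets, members called were 9, 9 and 9 in place of 8, 9 and 8. Depth limits Dcx and Stmn2 in ROS+++, where 3 of 36 member values rest on 10 or fewer reads.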

Other observations

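The relatives of the members differed in how the second step compared with the first. The step from ROS++ to ROS+++ was set against that from ROS+ to ROS++ (limma, adjusted over all genes). Of all genes, 15.0% passed with a negative and 2.81% with a positive value. Dpysl4, a CRMP gene, and Tubb4a were lower by more at the second step, by -2.71 ± 0.48 (adjusted p = 0.000913) and -1.74 ± 0.37 (adjusted p = 0.00431). Dpysl2 had a positive value, 0.81 ± 0.14 (adjusted p = 0.000656). Its difference between ROS+++ and ROS++, 0.12 ± 0.08, did not pass (adjusted p = 0.282), but it did under each other library scaling (0.40 to 0.53, adjusted p = 0.000581 to 0.0033). Tuba1b and Tubb6, which were higher in ROS++ than in ROS+, had values of -1.43 and -3.77 that passed (adjusted p = 0.000832 and 0.00227), and 75.1% of stretches of 50 bases in Tuba1b occur in other genes. Crmp1, Tubb5, Tuba1c and Tubb4b also passed with negative values (adjusted p = 0.0285, 0.0227, 0.0306 and 0.0218), and each of these 4 calls was lost under every other library scaling (adjusted p = 0.0547 to 0.344) and without single ROS++ libraries, which were replicates 2 to 5 for Crmp1, 3 and 5 for Tubb5, 1, 3 and 4 for Tuba1c (and ROS+++ replicate 4), and 1 to 3 for Tubb4b (adjusted p = 0.0501 to 0.0927). Tuba1b, Tubb6, Tuba1c and Tubb4b were higher in ROS++ than in ROS+ and did not pass between ROS+++ and ROS++. Their negative values therefore do not show a decline at the second step.

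Cell cycle markers and the members differed at the first step. Of all genes, 13.2% were lower and 16.4% higher in ROS++ than in ROS+, and 40.0% lower and 19.2% higher in ROS+++ than in ROS+. Of 12 such markers, 8 were higher and 0 lower in ROS++ than in ROS+, and 0 were higher and 7 lower in ROS+++ than in ROS+. Their summed level lay between 212 and 575 CPM in ROS+, between 749 and 1414 CPM in ROS++ and between 105 and 241 CPM in ROS+++. Of 6 intermediate progenitor markers, 2 were higher and 2 lower in ROS++ than in ROS+ and 4 were lower in ROS+++ than in ROS+, with sums of 252 to 423, 184.5 to 350.3 and 19.1 to 48.4 CPM in ROS+, ROS++ and ROS+++.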
